A study of Mus musculus with 4 samples.

Results

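The subject of this section is the set of genes by which cones, the photoreceptors of daylight and colour vision, turn light into an electrical signal, together with a channel subunit. The 10 genes were Opn1sw, Opn1mw, Arr3, Gnat2, Pde6c, Pde6h, Cnga3, Cngb3, Gngt2 and Kcne2, and they were found by gene name among the 35737 named genes of a mouse 1-colour expression array, where 14 probes carried their names. All 14 were followed on all 4 arrays of the study. The tissue was 3D-retinas, optic cups grown in suspension from mouse Nrl-GFP induced pluripotent stem cells, in which a green fluorescent reporter is driven by the rod gene Nrl. Optic cups with bright green fluorescence were picked by hand on differentiation day 23, so that the material was selected on a rod reporter. All 4 groups were treated on day 23 and collected on day 25. The vehicle group received ethanol. The 4-OHT group received 5 µM 4-hydroxytamoxifen, which the body makes from the breast cancer drug tamoxifen. The vitamin E group received that dose of 4-OHT and the antioxidant vitamin E at 400 µM. The lutein group received that dose of 4-OHT and lutein, a yellow carotenoid of the primate macula, at 200 nM. Each group was 1 array hybridised with RNA pooled from 24 3D-retinas. No comparison below therefore has a replicate check or a p-value, and each difference is a size between those arrays.

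Cones and rods use related but separate proteins for the same cascade. Light isomerises the chromophore of an opsin, the opsin activates a transducin, and the transducin alpha subunit lifts the inhibitory subunit from a cyclic GMP phosphodiesterase. The fall in cyclic GMP closes a cation channel of the outer segment, and arrestin then binds the phosphorylated opsin and ends its activity. In the mouse retina most photoreceptors are rods, many cones hold both cone opsins, and Nrl directs photoreceptor precursors away from the cone fate.

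Signals are given as log2 intensity minus the 75th percentile of that array, so that 0 is the 75th percentile of the gene spots. On each array 51.3% to 54.5% of the gene spots exceeded background clearly, by the scanner software's test, and no spot was saturated. Probes printed in 10 copies give the noise of a spot: the SD of a log2 difference was 0.15 to 0.16 over all detected signals, 0.29 to 0.31 below -2 and 0.08 to 0.09 above 0. This spot SD leaves out variation between cultures. Probes differ in how well they hybridise, so levels of different genes were not compared. A signal not well above background gives only a bound, calculated against the lowest signal well above background on that array, or against the dim signal itself where that is higher, and written as "at least".

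Of the 10 cone genes 8 were well above background on all 4 arrays. Opn1sw was so on 3 arrays, and Opn1mw on none. Arr3 and Gnat2, which mark cones as a class, were thus detected on every array, and the middle-wave opsin was not. Arr3 and Gnat2 also lay on opposite sides of vehicle with 4-OHT. Detection in whole tissue picked on a rod reporter does not show how far the set reads cones. With 4-OHT alone 3 of the 9 measured genes were at least 2-fold above vehicle, Kcne2, Arr3 and Opn1sw, where 7.75% of the 22077 genes measured were as far above. Gnat2 alone was at least 2-fold below, where 3.15% of all genes were. The other 5 fell short of 2-fold, with Cnga3 and Gngt2 above 0, Pde6h and Cngb3 below 0, and the probes of Pde6c on both sides of 0. The median log2 difference of the 9 was 0.60, against -0.06 over all genes measured. The RNA came from whole 3D-retinas, in which fewer cells of a type and less RNA per cell cannot be told apart.

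**Figure D1:**
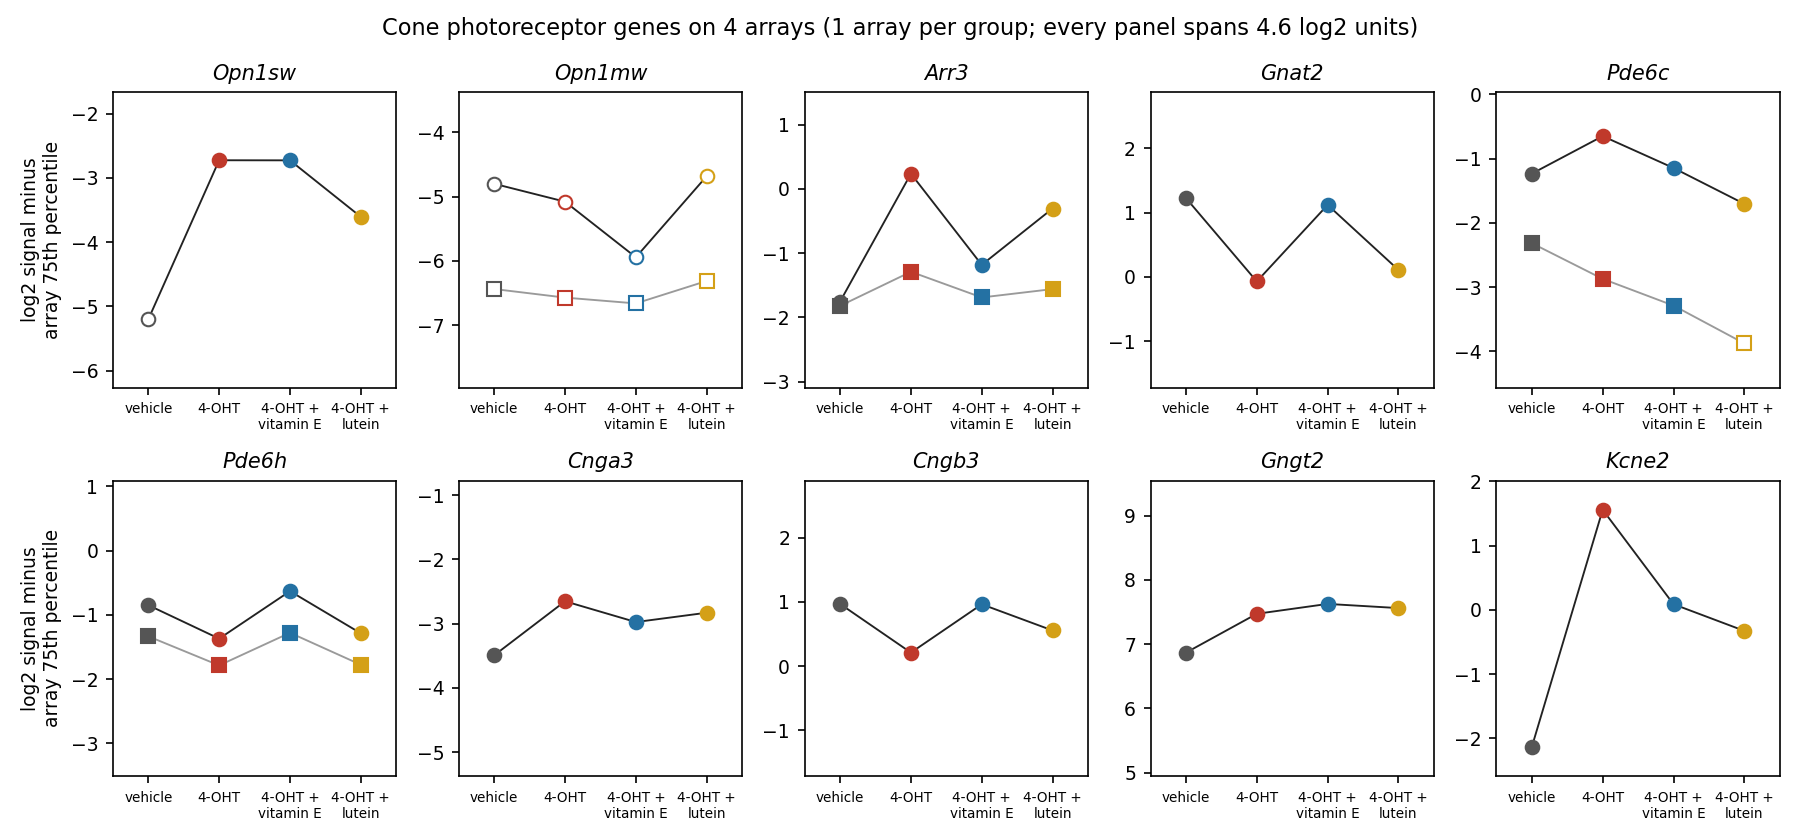
Signal of every probe of the 10 cone genes (log2 intensity minus the array's 75th percentile) on the 4 arrays, 1 array per group. Filled symbols were well above background and open symbols were not; circles are the brightest probe of a gene and squares a further probe, every panel spans the same number of log2 units, and Kcne2 has the widest range, from -2.13 in vehicle to 1.56 with 4-OHT.

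Of the cone opsins, Opn1sw was detected on the treated arrays and Opn1mw on none. Opn1sw, the short-wave opsin, was read by 1 probe (mm9, chromosome 6, 29326672 to 29326731). Its signal was -5.20 in vehicle, which was not well above background, -2.73 with 4-OHT, -2.73 with vitamin E and -3.61 with lutein. Vehicle was thus the lowest array, 4-OHT and vitamin E were equal to 2 decimals, and lutein lay between. Against vehicle Opn1sw was at least 2.93-fold higher with 4-OHT (a log2 bound of 1.55), at least 2.93-fold higher with vitamin E and at least 1.59-fold higher with lutein. With normexp background correction, which compresses dim signals, the bound for 4-OHT was 0.72, short of 2-fold. The lutein array was 0.88 below the 4-OHT array.

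Opn1mw, the middle-wave opsin, had 2 probes, and neither was well above background on any array. The brighter probe, on chromosome X at 71396020 to 71396079 of mm9, gave -4.80 in vehicle, -5.08 with 4-OHT, -5.94 with vitamin E and -4.68 with lutein. The dimmer gave -6.44, -6.57, -6.66 and -6.31 in the same order. These values have no order, and no fold is given. The dimmer probe carries the following 60 bases, shown because it is a further reading of a transcript that was not detected; the file gives it no genome position.
Opn1mw: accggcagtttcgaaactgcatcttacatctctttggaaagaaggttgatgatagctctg

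Arr3 encodes cone arrestin, which quenches the activated cone opsins. Its brighter probe, on chromosome X at 97813773 to 97813832 of mm9, gave -1.75 in vehicle, 0.24 with 4-OHT, -1.18 with vitamin E and -0.31 with lutein. The 4-OHT array was the highest and vehicle the lowest, with vitamin E nearer to vehicle and lutein nearer to 4-OHT. The difference of 4-OHT from vehicle was 1.99, or 3.97-fold, and 1.76% of the genes with a measured difference or bound were as high or higher.

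The dimmer Arr3 probe, on the same chromosome at 97812262 to 97812321, gave -1.82 in vehicle, -1.29 with 4-OHT, -1.69 with vitamin E and -1.56 with lutein. The order of the arrays was the same as for the brighter probe, but the span was 0.53 against 1.99, and the difference of 4-OHT from vehicle was 1.44-fold. Vitamin E lay 0.13 above vehicle by this probe, within the spot SD. The Arr3 count past 2-fold thus rests on the brighter probe, and its direction on both. The dimmer probe is printed because the size of the Arr3 difference depends on which of the probes is read.
Arr3: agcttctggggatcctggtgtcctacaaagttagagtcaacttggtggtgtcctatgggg

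Gnat2, the alpha subunit of cone transducin, showed the opposite pattern. Its probe, on chromosome 3 at 107904135 to 107904194 of mm9, gave 1.22 in vehicle, -0.07 with 4-OHT, 1.12 with vitamin E and 0.11 with lutein. The arrays fell into a high pair, vehicle and vitamin E, and a low pair, 4-OHT and lutein. The step between the pairs was 1.01, against 0.11 within the high pair and 0.18 within the low pair. With 4-OHT Gnat2 was 2.46-fold below vehicle (log2 difference -1.30), and 1.39% of genes were as low or lower. It ranged from -1.44 to -1.22 over the alternatives tried and was the only cone gene at least 2-fold below vehicle in any comparison by its brightest probe.

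Gngt2, the gamma subunit of cone transducin, lay above vehicle on all 3 treated arrays. Its signal was 6.87 in vehicle, 7.47 with 4-OHT, 7.63 with vitamin E and 7.56 with lutein, from a probe on chromosome 11 at 95706975 to 95707034 of mm9. The 3 treated arrays lay within 0.15 of each other, and vehicle lay 0.60 below the nearest of them. RefSeq places Gngt2 over the gene Abi3, so a share of the signal from transcripts of that gene was not tested.

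The cone phosphodiesterase is a pair of Pde6c catalytic subunits held inactive by the Pde6h gamma subunit. The brighter Pde6c probe, on chromosome 19 at 38258322 to 38258381 of mm9, gave -1.23 in vehicle, -0.65 with 4-OHT, -1.15 with vitamin E and -1.71 with lutein. By this probe 4-OHT was the highest array, vehicle and vitamin E differed by 0.09, within the spot SD, and lutein was the lowest.

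The dimmer Pde6c probe, at 38254510 to 38254569, gave -2.32 in vehicle, -2.87 with 4-OHT, -3.29 with vitamin E and -3.88 with lutein, the last of these not well above background. By this probe vehicle was the highest array. The probes therefore had opposite signs for 4-OHT against vehicle, at 0.58 and -0.56, and no direction is given for Pde6c in that comparison. For lutein against 4-OHT they were close, 2.08-fold lower by the brighter and at least 2.01-fold lower by the dimmer. RefSeq lists more than 1 curated Pde6c transcript, and whether the probes read different transcripts was not tested. The dimmer probe is printed for that reason.
Pde6c: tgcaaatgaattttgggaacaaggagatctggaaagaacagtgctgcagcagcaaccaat

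Pde6h was read alike by its 2 probes. The brighter, on chromosome 6 at 136911944 to 136912003 of mm9, gave -0.85 in vehicle, -1.37 with 4-OHT, -0.63 with vitamin E and -1.29 with lutein. The dimmer gave -1.33, -1.79, -1.28 and -1.77 in the same order. By both probes vehicle and vitamin E were above 4-OHT and lutein, and by the dimmer probe the members of each pair lay within the spot SD of each other. The difference of 4-OHT from vehicle was -0.52 by the brighter probe and -0.45 by the dimmer, and that of vitamin E from 4-OHT was 0.74 and 0.51. All were short of 2-fold. The dimmer probe is shown as a reading that the brighter one repeats.
Pde6h: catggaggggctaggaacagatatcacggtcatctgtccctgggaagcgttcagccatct

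The cone cation channel is built of Cnga3 and Cngb3 subunits. Cnga3, read on chromosome 1 at 37320149 to 37320208 of mm9, gave -3.49 in vehicle, -2.65 with 4-OHT, -2.98 with vitamin E and -2.83 with lutein. Vehicle was the lowest array, and neighbours among the 3 treated arrays differed by 0.15 and 0.18, within the spot SD for dim signals. The difference of 4-OHT from vehicle was 0.84, and it was 0.35 with normexp background correction.

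Cngb3, read on chromosome 4 at 19437711 to 19437770 of mm9, gave 0.97 in vehicle, 0.21 with 4-OHT, 0.96 with vitamin E and 0.56 with lutein. Vehicle and vitamin E were level, 4-OHT was the lowest, and lutein was midway. The 2 channel subunits thus lay on opposite sides of vehicle with 4-OHT, at 0.84 and -0.76, both short of 2-fold.

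Kcne2 encodes a single-span accessory subunit of voltage-gated potassium channels, which is also made by the epithelium of the choroid plexus. Its probe, on chromosome 16 at 92298236 to 92298295 of mm9, gave -2.13 in vehicle, 1.56 with 4-OHT, 0.09 with vitamin E and -0.33 with lutein. The 4-OHT array was the highest and vehicle the lowest by a wide margin, and both supplemented arrays lay between. Kcne2 was 12.9-fold above vehicle with 4-OHT (log2 difference 3.69), 4.66-fold above with vitamin E and 3.49-fold above with lutein. Only 0.177% of genes were as high or higher with 4-OHT. The 4-OHT difference was 3.17 at its lowest over the alternatives.

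Kcne2 is not specific to cones, so the choroid plexus markers were read beside it. Of the 12 listed, Kl, Cldn2 and Sostdc1 were well above background on no array, and Ttr, the plexus transthyretin, and Clic6 only on the vitamin E array. Of the 7 measured for 4-OHT against vehicle 0 were past 2-fold in either direction, with a median of 0.13. Folr1 was at -0.29, Aqp1 at -0.62, Prlr at -0.89, Enpp2 at 0.13, Slc4a5 at 0.23 and Steap1 at 0.60, and Kcnj13, detected with 4-OHT only, had a bound of 0.65. Their summed signal, in units of each array's 75th percentile, was 3.25 in vehicle, 3.11 with 4-OHT, 3.23 with vitamin E and 2.87 with lutein.

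Against vehicle, the supplemented arrays gave further counts. With vitamin E 2 of 9 cone genes were at least 2-fold higher, Kcne2 and Opn1sw, where 1.09% of 21361 genes were, and 0 were lower, where 1.98% were. With lutein 2 of 9 were higher, Kcne2 and Arr3, where 3.43% of 21351 genes were, and 1 was lower, Gnat2 at 2.17-fold, where 1.49% were. The medians of the cone genes were 0.52 and 0.66, against -0.02 and -0.01 over all genes, and over the alternatives they ranged from 0.13 to 0.59 and from 0.12 to 0.67. With lutein the Arr3 count rests on the brighter probe, since the mean of its probes was at 0.85 and the dimmer probe at 0.26. Pde6c had a log2 bound of -1.56 for lutein against vehicle by its dimmer probe and stood at -1.02 by the mean of its probes, but at -0.47 by the brighter probe. These comparisons share the vehicle array with the comparison of 4-OHT, so their values are only set side by side.

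**Figure D2:**
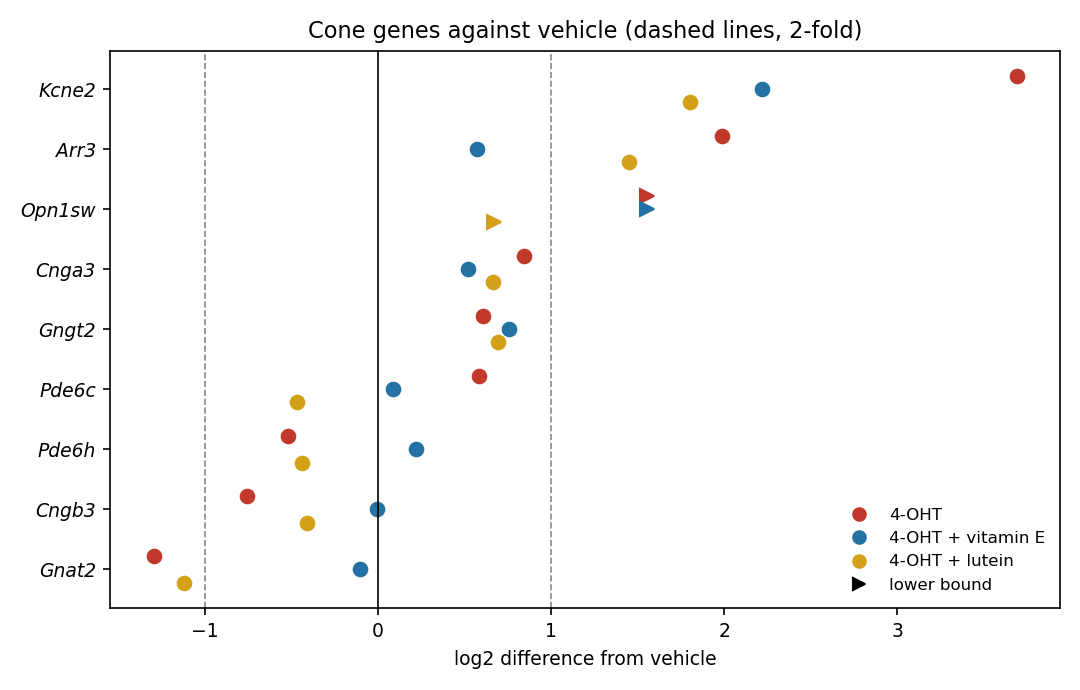
Log2 difference from vehicle of the 9 measured cone genes on the 4-OHT, vitamin E and lutein arrays, by the brightest probe of each gene, with dashed lines at 2-fold. Circles are measured differences and triangles lower bounds, for Opn1sw, which was not well above background in vehicle; all 3 values lie above 0 for Kcne2, Arr3, Opn1sw, Cnga3 and Gngt2, and all 3 at or below 0 for Cngb3 and Gnat2.

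Vitamin E was set against 4-OHT alone to ask what the supplement changed under the drug. Cone genes lay on both sides of their 4-OHT level. Gnat2 was 2.28-fold higher with vitamin E (log2 difference 1.19), 1 of 9 cone genes where 1.49% of 22148 genes were at least 2-fold higher; that background of 329 genes was 740 on spike-in scaling and 665 after quantile normalization. Kcne2 was 2.77-fold lower (-1.47) and Arr3 2.67-fold lower (-1.42) by its brighter probe, 2 of 9 where 8.81% of genes were lower. By the dimmer Arr3 probe the difference was -0.40. Cngb3 at 0.75 and Pde6h at 0.74 were short of 2-fold, as were Pde6c at -0.50, Cnga3 at -0.32, Gngt2 at 0.15 and Opn1sw at -0.00. The median was -0.00, against 0.08 over all genes. The 3 genes below vehicle with 4-OHT alone differed from vehicle, with vitamin E, by -0.11 for Gnat2, -0.01 for Cngb3 and 0.22 for Pde6h. Among the genes above vehicle with 4-OHT alone, Kcne2 at 2.22, Arr3 at 0.57 and Cnga3 at 0.52 lay between vehicle and 4-OHT. Opn1sw was level with 4-OHT, and Gngt2 at 0.76 lay farther from vehicle than with 4-OHT alone. Genes were sorted here by the 4-OHT array, and a deviation of that array alone could give such a return toward vehicle.

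The same comparison was made for lutein. Kcne2 was 3.69-fold lower with lutein (log2 difference -1.88) and Pde6c 2.08-fold lower (-1.05), 2 of 9 where 3.84% of 21989 genes were at least 2-fold lower, and 0 of 9 were higher, where 1.15% were. The Pde6c value was -0.85 with normexp background correction and -0.95 on spike-in scaling, both short of 2-fold. Opn1sw at -0.88 and Arr3 at -0.54 were lower but short of 2-fold. Cngb3 stood at 0.34, Gnat2 at 0.18, Gngt2 at 0.09, Pde6h at 0.08 and Cnga3 at -0.18. The median was -0.18, against 0.08 over all genes.

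The supplemented arrays were also set against each other, although the doses differ and the compounds are not related. Gnat2 was 2.02-fold higher with vitamin E than with lutein, a difference of 1.01 that ranged from 0.96 to 1.12 over the alternatives. It was short of 2-fold with normexp background correction, at 0.96, and after quantile normalization, at 0.98, where Opn1sw was past 2-fold in its place. By the main values Gnat2 was 1 of 9 cone genes where 0.495% of 21433 genes were at least 2-fold higher, and 0 of 9 were lower, where 3.66% were. Opn1sw stood at 0.88, Pde6h at 0.66, Pde6c at 0.56, Kcne2 and Cngb3 at 0.41, Gngt2 at 0.06, Cnga3 at -0.15 and Arr3 at -0.88.

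Rods carry paralogs of most of these cone genes, which allows the cascades to be read side by side as differences between arrays. With 4-OHT against vehicle the cone gene lay above its rod paralog in 8 of 8 pairs, formed by 7 cone genes, with a median gap of 2.10 on the log2 scale. All 8 rod genes were below -0.76, a level at which 7.33% of all genes were as low or lower. Most genes would thus lie above these rod genes, so the count alone does not set the cone genes apart. Gnat2 was at -1.30 and the rod transducin Gnat1 at -5.35. Arr3 was at 1.99 and the rod arrestin Sag at -0.90. Both cone and rod transducin alpha subunits were thus below vehicle, whereas cone arrestin was above vehicle and rod arrestin below.

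The remaining pairs had gaps within the range set by Cngb3 and Gnat2. For the channels, Cnga3 was at 0.84 and Cnga1 at -2.28, and Cngb3 at -0.76 and Cngb1 at -1.56. Gngt2 was at 0.60 and Gngt1, the rod gamma subunit, at -1.72. For the phosphodiesterase, Pde6h was at -0.52 and Pde6g at -2.31, and Pde6c at 0.58 where the rod catalytic subunits Pde6a and Pde6b were at -1.28 and -0.90. Over every detected probe of both genes the cone value lay above the rod value in 14 of 14 probe pairs, the closest being Cngb3 at -0.76 and the least changed of 3 Cngb1 probes, also at -0.76.

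With either supplement the order turned. Against 4-OHT alone the cone gene lay above its rod paralog in 0 of 8 pairs with vitamin E, with a median gap of -1.13, and in 0 of 8 with lutein, with a median gap of -0.85. The paired rod genes except Pde6a and Sag lay above 0.74 with vitamin E, where 4.03% of genes were as high or higher. With lutein they lay above 0.34, where 12.9% of genes were. Most genes would thus lie below these rod genes, so the counts alone do not set the cone genes apart. Over probe pairs the cone value lay above in 1 of 14 in each case, again Cngb3 and a Cngb1 probe. With vitamin E, Gnat1 lay above its 4-OHT level by 2.40 and Gnat2 by 1.19, and Cnga1 stood at 1.47 where Cnga3 stood at -0.32. Against vehicle, by the brightest probe of each gene, the cone gene lay above in 8 of 8 pairs with vitamin E and in 7 of 8 with lutein, the exception being Pde6c at -0.47 beside Pde6b at -0.42. Over every detected probe it lay above in 12 of 14 probe pairs with vitamin E and 11 of 14 with lutein, and all the exceptions involve Pde6c. By its dimmer probe, at -0.97 with vitamin E and with a bound of -1.56 with lutein, Pde6c lay below both Pde6a and Pde6b. All these comparisons share arrays, and the reversal against 4-OHT uses the same 4-OHT values as the comparison with vehicle.

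**Figure D3:**
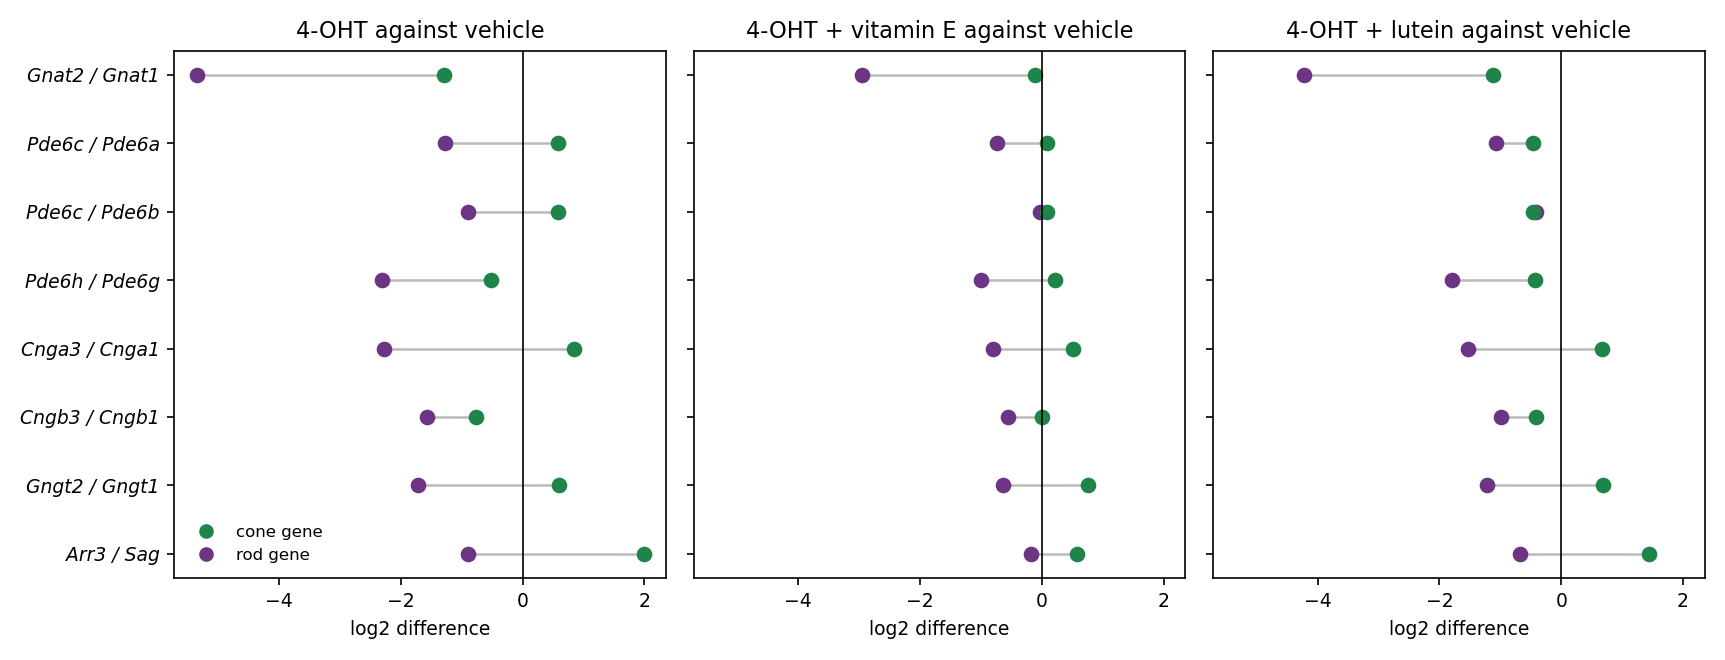
Log2 difference from vehicle of 7 cone genes and their 8 rod paralogs, in 8 pairs, on the 4-OHT, vitamin E and lutein arrays (3 panels, 1 array per group), by the brightest probe of each gene. Green marks the cone gene and purple the rod gene. The green symbol lies to the right in 8 of 8 pairs with 4-OHT, 8 of 8 with vitamin E and 7 of 8 with lutein. By the dimmer Pde6c probe, not drawn, Pde6c lies below both Pde6a and Pde6b with vitamin E and with lutein.

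The 13 listed rod counterparts, which hold these paralogs, the rod factors Nrl, Nr2e3 and Esrrb and further rod genes, gave 0 higher and 9 lower of 13 past 2-fold with 4-OHT, with a median of -1.56. Further components of the cascade, most of them used by cones and rods alike, were mostly below vehicle with 4-OHT. The 15 listed had a median of -0.98, 7 were past 2-fold below and 0 past 2-fold above. The lowest were Gucy2f, a photoreceptor guanylate cyclase, at -2.88, and the calcium sensor Rcvrn at -2.11, and the highest Slc24a2, the sodium-calcium-potassium exchanger of cones, at 0.15, and Gnb3, the beta subunit of cone transducin, at 0.14. With vitamin E against 4-OHT 2 of 15 were higher and 0 lower, with a median of 0.59, and with lutein 0 of 15 were past 2-fold in either direction, with a median of 0.12. The genes of the cone transducin subunits thus stood with 4-OHT at -1.30 for alpha, 0.14 for beta and 0.60 for gamma. These are values of whole 3D-retinas, and a share of the signal from other cells was not tested.

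Genes of cone fate and other cone-enriched genes lay on both sides of vehicle with 4-OHT, mostly short of 2-fold. Of 10 listed, Sall3 and Onecut1 were well above background on no array. Of the remaining 8, Ccdc136 alone passed 2-fold with 4-OHT. The median was 0.15, with 5 genes above 0 and 3 below. Ccdc136 was at 1.29 and the T-box factor Tbx2 at 0.58, and the nuclear receptors Rxrg and Thrb, which take part in the choice of cone opsin, were lowest at -0.70 and -0.68. With vitamin E against 4-OHT all 8 lay above 0, with a median of 0.43 and 0 past 2-fold, and with lutein 0 of 8 were past 2-fold, with a median of 0.10. Of 8 photoreceptor transcription factors, a list that shares Nrl and Nr2e3 with the rod list and Neurod1 with the cone fate list, 0 were past 2-fold with 4-OHT, with Crx at -0.85 and Otx2 at 0.39 at its ends and a median of -0.47.

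**Figure D4:**
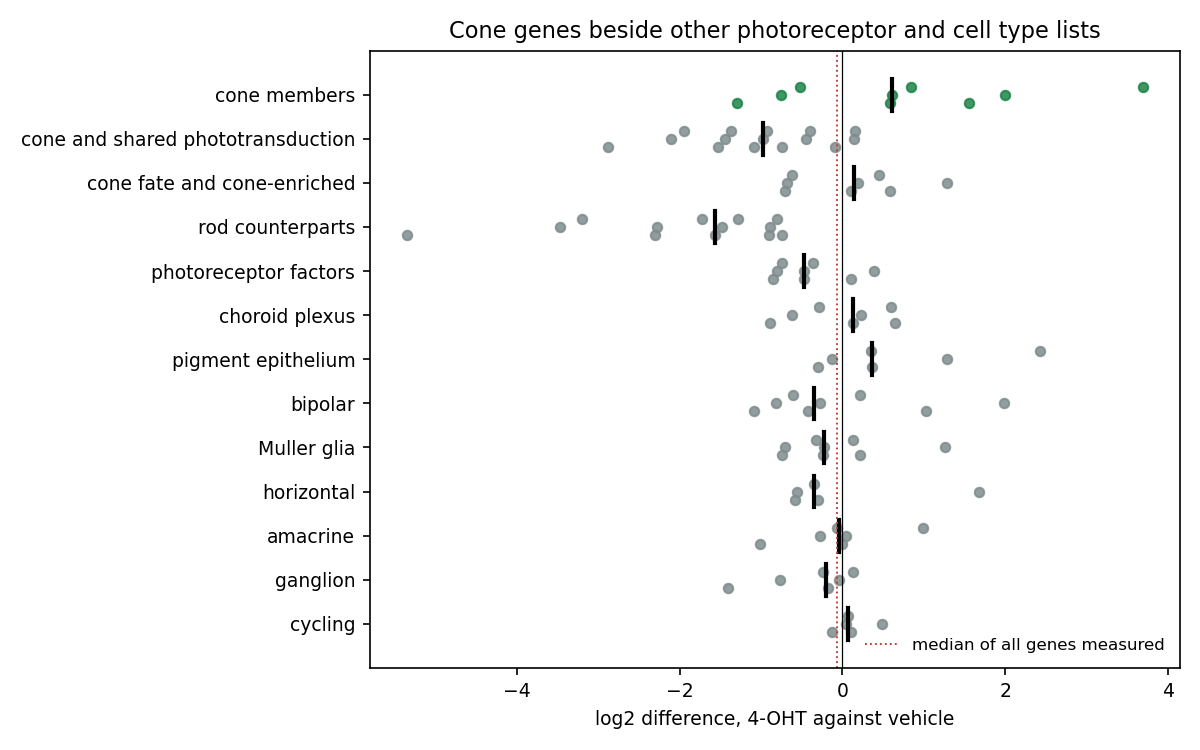
Log2 difference of 4-OHT against vehicle for each measured gene (points) of the cone genes and 12 other lists, with the list median (black bar) and the median of all genes measured (dotted line, -0.06). The cone genes spread from -1.30 to 3.69 with a median of 0.60, and the rod counterparts lie below 0 throughout with a median of -1.56.

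Markers of other retinal and neighbouring cells gave the surroundings of these values. With 4-OHT against vehicle the medians were -0.35 for 8 bipolar, -0.23 for 8 Muller glia, -0.35 for 5 horizontal, -0.04 for 6 amacrine and -0.21 for 6 ganglion cell genes, and 0.07 for 5 genes of cycling cells. Past 2-fold were Sox9 of the Muller glia list at 1.26 and Onecut2 of the horizontal list at 1.67, both higher, and Gad1 of the amacrine list at -1.01 and Sncg of the ganglion list at -1.40, both lower. In the bipolar list Cabp5 at 1.98 and Trpm1 at 1.02 were counted higher by their brightest probe, but a further probe of each lay below 0, at -1.47 and -0.40, and Vsx1 had a bound of -1.08. Of the genes of cycling cells 0 passed 2-fold. In the pigment epithelium list 2 of 6 measured were at least 2-fold higher, the melanin enzyme Dct at 2.43 and the retinol dehydrogenase Rdh5 at 1.28, and 0 lower, with a median of 0.36. Rpe65, Best1, Lrat, Mlana, Rgr and Slc45a2, further genes of the pigment epithelium, were well above background on no array. The summed signal of the pigment epithelium list was 4.66 in vehicle, 15.8 with 4-OHT, 12.02 with vitamin E and 14.9 with lutein, and its part in the cone values was not tested. Without Dct and Rdh5, left out after their values were seen, the other 10 listed genes summed to 1.02 in vehicle, 1.12 with 4-OHT, 1.39 with vitamin E and 1.30 with lutein.

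For the 4 cone genes detected on all arrays that spanned at least 1 log2 unit, the genes most like them in pattern were found by the Euclidean distance between the 4 values, each minus its own mean, among 12779 genes with a symbol that were detected on all 4 arrays. With 4 arrays and that many candidates a close match is easily found, so the distances are descriptions. Nearest to Arr3 were Epha2 (distance 0.06), Gadd45g (0.09) and Pkn3 (0.12). Nearest to Gnat2 were Gsap (0.18), Wnt3 (0.22) and Hes2 (0.23). Nearest to Pde6c were Nkx1-1 (0.11), Tmem79 (0.17) and Aurkc (0.23). The patterns were those of the brightest probe of each gene. The dimmer Arr3 probe had a narrower span and the dimmer Pde6c probe another order of arrays, so these matches hold for the brighter probes only. Kcne2 had no neighbour as close, and its nearest were the non-coding RNAs Mirg (0.48) and Meg3 (0.71), and Egln3 (0.95). The distance is not scaled to span, and Kcne2 had the widest span, 3.69, so its distances are not comparable with the others. None of the 12 is in the lists of photoreceptor genes above.

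RefSeq promoter windows (build GRCm38.p6) were held for 7 of the 10 cone genes, in 9 windows, and the 250 bases before the start were searched on both strands. The motifs were TAATCC for the photoreceptor factors Crx and Otx2, TGCTGA for Nrl and large Maf factors, AGGTCA for nuclear receptors, TGATGCAA for an Atf4 composite element and TGANTCA for AP-1. Opn1sw and Gnat2 are shown, since they lay on opposite sides of vehicle with 4-OHT and are the members whose windows held a motif of the photoreceptor or nuclear receptor factors. Each is printed in the direction of transcription, with matches in capitals.
Opn1sw, chr6:29380514-29380763, minus strand: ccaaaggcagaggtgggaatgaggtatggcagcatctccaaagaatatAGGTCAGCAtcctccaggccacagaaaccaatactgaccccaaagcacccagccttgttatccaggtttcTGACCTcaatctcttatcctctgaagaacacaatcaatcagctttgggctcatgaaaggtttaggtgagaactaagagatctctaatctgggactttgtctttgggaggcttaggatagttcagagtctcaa
Gnat2, chr3:108092816-108093065, plus strand: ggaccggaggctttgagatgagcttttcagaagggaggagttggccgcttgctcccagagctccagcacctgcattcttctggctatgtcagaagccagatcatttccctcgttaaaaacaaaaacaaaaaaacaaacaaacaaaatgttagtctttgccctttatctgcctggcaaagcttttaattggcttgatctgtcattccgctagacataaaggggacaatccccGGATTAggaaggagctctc

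The Opn1sw window held AGGTCA 2 times, 202 bases before the start and, on the other strand, 132 bases before it, and the match farther from the start overlaps a TGCTGA on the other strand. Of all 32851 windows of this length 14.0% held AGGTCA and 16.1% TGCTGA. The Gnat2 window held TAATCC 1 time, on the other strand, 19 bases before the start, and 6.25% of all windows held it. The Pde6h window held TGANTCA 1 time, 247 bases before the start, as did 6.75% of all windows. TGATGCAA was in none of the 9 windows and in 0.791% of all. None of the 5 motifs was in the windows of Arr3, Kcne2, Cnga3 or Opn1mw, which says only that those letters are not in those stretches.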

How the data were processed

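Per the labels, 50 ng of RNA from each of 4 pools gave the Cy3-labelled target. The submitters' processing notes name Agilent Feature Extraction 10.7.3.1 as the image software. The deposited intensity of a spot was background-subtracted, per the file headers, and not normalized between arrays. The headers show 1 slide and 1 scan for all arrays, so these did not separate the groups; an array's place on the slide cannot be told apart from its group. Names came from the vehicle array, because the lutein file had been saved again at 3 significant digits with 57 altered gene names. The authors' deposited value table holds linear signal divided by 1 number per array (vehicle 494.2, 4-OHT 434.1, vitamin E 468.9, lutein 479.2), as its comparison with the scanner values showed; it is not logged, centred per gene or turned in direction, its column medians are 0.0794, 0.0949, 0.0736 and 0.0847, and it served as an alternative.

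Outlier spots (137 to 164 per array) were left out, log2 intensities were centred on the 75th percentile of an array's gene spots, and repeat spots were averaged per probe. The probe with the highest mean stood for a gene. A gene was measured if well above background on at least 1 array of a comparison, and counted at 2-fold, a fixed size; the number of arrays limits the precision, and no test was possible. Current symbols came from RefSeq, by accession, for 28331 of 55646 probes.

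The members, the gene lists and the rules were chosen with earlier results of these data known. All 10 cone genes were named with every probe, of other lists the paired rod genes, the choroid plexus markers and at most 4 genes at the ends of a list, and the 3 nearest genes in pattern; some genes are not reported here. Of the steps, only the count at 2-fold was tried on simulated data, for 4-OHT against vehicle. That simulation held spot noise and no variation between cultures. Tools were Python 3.11.15, NumPy 2.4.6, pandas 2.3.3, matplotlib 3.10.9 and, for normexp background, limma 3.58.1 under R 4.3.3.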

Additional observations from a re-analysis of the deposited data

How the results depend on the processing

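No paired analysis was possible because there was 1 array per group, so that no replicate could be left out either. Of 144 recomputed counts of cone genes 116 stayed within 1.5 times and 28 did not; those against vehicle for each supplement, and of the supplements against each other, were recomputed as an addition chosen after seeing the data. At 1.5-fold, 5 cone genes were higher and 2 lower with 4-OHT against vehicle, where 3348 and 2977 of all 22077 genes measured were. At that limit 3 were higher with vitamin E against 4-OHT, where 1895 of 22148 genes were. At 4-fold, 1 was higher (Kcne2) and 0 lower with 4-OHT, where 382 and 76 of all genes were. At 4-fold 0 were higher and 0 lower with vitamin E against 4-OHT, where 33 and 519 of all genes were. With lutein against 4-OHT 0 were lower at 4-fold, where 50 of all genes were. With the mean of all probes or the dimmest detected probe 1 was lower with vitamin E against 4-OHT, because Arr3 dropped out. With lutein against 4-OHT 1 was lower on spike-in scaling and 1 with normexp background, because Pde6c dropped out. With vitamin E against vehicle 1 was higher, Kcne2, with normexp background, with detection on both arrays and at 4-fold, and without a filter 1 was lower, Opn1mw, from signals not well above background. With lutein against vehicle 1 was higher and 2 lower by the mean of all probes and by the dimmest probe, 5 were higher at 1.5-fold, and 0 higher and 0 lower at 4-fold. With vitamin E against lutein 0 were higher with normexp background and at 4-fold, 3 were higher and 1 lower at 1.5-fold, and 1 was lower without a filter, again Opn1mw. For lutein against vehicle and vitamin E against lutein the share of all genes at 1.5-fold is not reported here. Their member counts at that limit therefore have no background beside them. Of 148 recomputed differences that were at least 2-fold in the main setting 127 kept within the spot SD, 21 moved beyond it and 0 changed sign, and of all 537, most of them short of 2-fold, 59 moved beyond it and 12 changed sign; most settings cannot move a gene with 1 bright probe, so this is not a measure of stability. Spike-in scaling, on 7 of 10 probes, moved the median of all genes by -0.14 for 4-OHT against vehicle and 0.21 for vitamin E against 4-OHT. The median of the cone genes ranged from 0.47 to 0.61 for 4-OHT against vehicle, from -0.03 to 0.21 for vitamin E against 4-OHT and from -0.19 to 0.02 for lutein against 4-OHT, so the last pair has no settled sign. The cone gene lay above its rod paralog in 0 or 1 of 8 pairs for each supplement against 4-OHT, and in 8 of 8 for 4-OHT against vehicle, under each of these alternatives. Counts over all genes, given above as backgrounds, ranged for 4-OHT against vehicle from 903 to 3147 higher and 350 to 1487 lower at 2-fold. With the limits of 1.5-fold and 4-fold included, these counts ranged from 382 to 3348 higher and 76 to 2977 lower. At 2-fold they ranged from 133 to 969 higher and 1044 to 3713 lower for vitamin E against 4-OHT, 75 to 1342 and 307 to 2135 for lutein against 4-OHT, 84 to 874 and 96 to 1560 for vitamin E against vehicle, 351 to 2106 and 138 to 1167 for lutein against vehicle, and 34 to 664 and 279 to 2429 for vitamin E against lutein. Except where a gene is named, the cause was not tested. Dim signals limit Opn1sw, Cnga3 and the dimmer Pde6c probe.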
